A study of Mus musculus with 16 samples.

Results

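Dntt encodes terminal deoxynucleotidyl transferase, a DNA polymerase that needs no template. It was measured here in early B-lineage cells of adult bone marrow and of fetal liver. A probe was taken as Dntt where the scanner files name the gene in the probe's description, which gave 3 of the 41174 probes on the array, and all 3 were bright enough to be kept and tested. Dntt is 1 of the 18191 genes that could be named on the array. The mice were wild-type BALB/c. The marrow of 16 adult females was pooled for each of 4 sorts, and the livers of the embryos of one pregnancy at gestation day 16, 8 on average, for each of 4 others. Both Fr.A and Fr.B/C were collected from every sort. In Hardy's naming Fr.A holds pre-pro-B cells, and Fr.B/C holds the pro-B cells that come after them. No agent was given, and the labels name no sex for the embryos. Each of the 16 samples shared a 2-colour array with one common reference, total RNA of 6 cell lines, so that each of the 4 groups has 4 arrays and a level is a log2 ratio of sample over reference.

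During V(D)J recombination the RAG1 and RAG2 proteins cut the antigen receptor genes, and the end joining proteins seal the ends again. Terminal transferase adds nucleotides to the open ends that are in neither germline segment, the N nucleotides, and so widens the range of junctions. Antibody genes joined in fetal mouse liver are known to carry few N nucleotides, while those joined in adult bone marrow carry many.

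The fractions were read against their stage genes. From Fr.A to Fr.B/C 8 of 11 measured pro-B genes rose in each tissue, while 1 fell in bone marrow and 2 in fetal liver. In each tissue 8 of 10 lymphoid progenitor genes fell and none rose. Of all named genes, 15.9% rose and 16.8% fell in bone marrow, and 11.5% rose and 13.0% fell in fetal liver. All 11 pro-B genes, among them Cd79a and Cd79b, were well above background on every array, but so were 9 to 10 of 10 erythroid and all 10 myeloid markers in bone marrow Fr.A, and that level alone does not tell the labels apart. In the sample's channel 53.0% to 68.4% of the probes on an array stood well above background, and 0.219% to 0.626% were saturated. Files of the arrays fall into 6 scan sessions by their headers, 4 with bone marrow only and 2 with fetal liver only, so tissue and scan session cannot be told apart. Precision is limited by the number of arrays.

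The 3 probes lie on chromosome 19 in the coordinates of the array's own annotation, whose genome build the files do not name. A_51_P516085, the brightest, lies at 40603819 to 40603878 and A_52_P601437 at 40603644 to 40603703, each an interval of 60 bases. A_52_P169420, the dimmest, is given an interval of 1570 bases, from 40585669 to 40587238. All 3 carry the same RefSeq transcript name. Which exon or untranslated region each probe matches was not analysed here.

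Dntt was far lower in fetal liver than in bone marrow, in both fractions and on all 3 probes. In bone marrow the sample spot of A_51_P516085 was saturated on all 8 arrays, at mean signals of 65259.8 to 65280. In fetal liver Fr.A the same spot read 161, 330.4, 338 and 242, and in fetal liver Fr.B/C it read 187, 232.5, 154 and 165. The fetal spots were dim but well above background on all 8 arrays. Since the bone marrow spots sat at the scanner's ceiling, any fold from this probe is a lower bound.

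**Figure D1:**
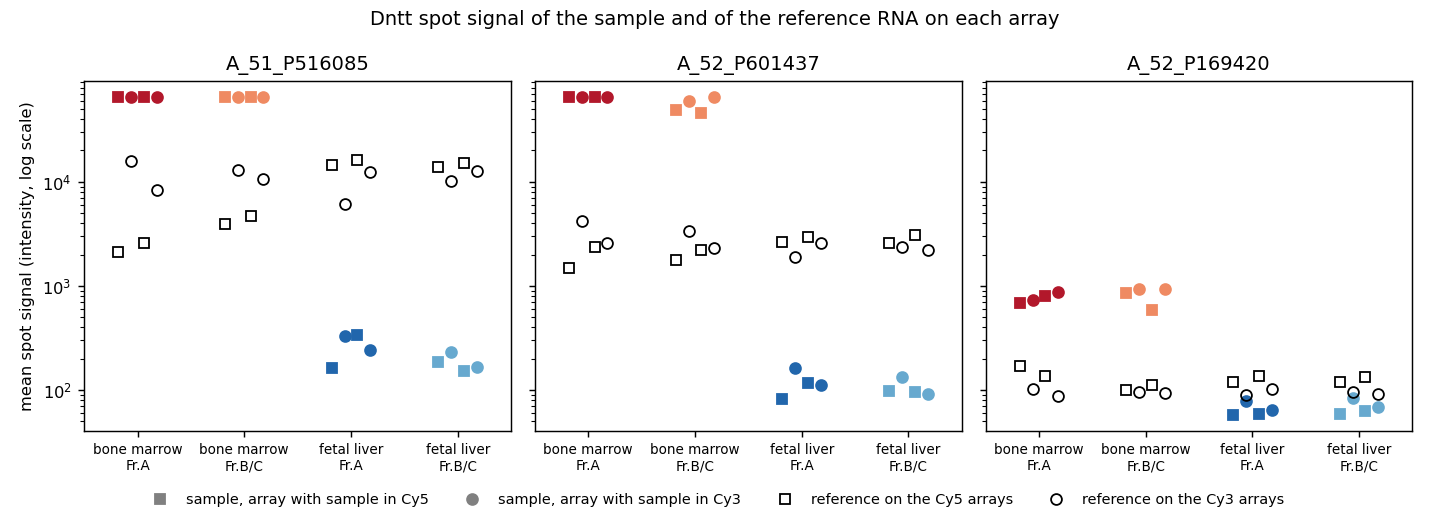
Mean spot signal (scanner intensity, log axis) of the 3 Dntt probes on each of the 16 arrays, with sample spots filled and reference spots open, squares where the sample was in Cy5 and circles where it was in Cy3. The sample spots of A_51_P516085 lie at 65259.8 to 65280 on all 8 bone marrow arrays and at 154 to 338 on the 8 fetal liver arrays.

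As log2 ratios to the reference, A_51_P516085 stood in bone marrow Fr.A at 4.84, 2.57 and 2.88 on the arrays of replicates 1, 2 and 4. Replicate 3 was left out because the scanner software marked its reference spot as non-uniform. In fetal liver Fr.A the ratios were -5.77, -4.64, -5.27 and -5.46. Every fetal array lay below every bone marrow array. The means were 3.43 ± 1.23 (SD, n = 3) and -5.28 ± 0.48 (SD, n = 4). The difference, fetal liver minus bone marrow, was -8.81 ± 0.46 (SE), with a 95% interval of -9.80 to -7.83 and a limma adjusted p of 5.39e-09. Read from the saturated signals, Dntt was at least 294-fold lower in fetal liver Fr.A. These are bulk samples, in which fewer cells that express Dntt and less Dntt RNA per cell cannot be told apart.

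In Fr.B/C the same probe read 3.83, 2.49, 3.78 and 2.22 in bone marrow and -6.04, -5.48, -6.11 and -6.17 in fetal liver. Again the groups did not overlap. The means were 3.08 ± 0.85 and -5.95 ± 0.32 (SD, n = 4 each). The difference was -9.03 ± 0.42 (SE; limma adjusted p = 1.34e-09), at least 354-fold.

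A_52_P601437 gave the value least limited by the scanner. Its sample spots were saturated on all 4 bone marrow Fr.A arrays, but in bone marrow Fr.B/C only replicate 4 was, and the other three read 49175, 59375 and 46132. In fetal liver Fr.B/C the spots read 97.1, 134, 96.4 and 91.9. The log2 ratios in Fr.B/C were 4.58, 4.28, 4.42 and 4.38 in bone marrow and -4.36, -4.17, -4.27 and -4.27 in fetal liver. The arrays of a group lay close together and the tissues lay far apart. The difference was -8.68 ± 0.14 (SE; limma adjusted p = 3.92e-15), which is 412-fold lower in fetal liver, with 3 of the 4 bone marrow arrays in range. That fold is a low reading, because replicate 4 was saturated. The fetal signals above background, 40.4 to 73.3, were also near the offset of 50, which shrinks the difference. From the scanner's processed signals, which lack the offset, the difference in Fr.B/C was -9.69. In Fr.A the ratios were 5.33, 4.50, 4.92 and 4.58 in bone marrow and -4.21, -3.99, -4.27 and -4.35 in fetal liver. There the difference was -9.04 ± 0.14 (SE; limma adjusted p = 2.15e-15), at least 527-fold.

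A_52_P169420 was not saturated on any array, so bone marrow is measured within range on it. Its sample spots read 681, 734, 799.9 and 867 in bone marrow Fr.A and 851, 940.04, 585.8 and 934 in bone marrow Fr.B/C. In fetal liver they read 58.0 to 79.2 in Fr.A and 59.2 to 83.4 in Fr.B/C and were not well above background on any array. The fetal values are therefore bounds, while the bone marrow values are not. The log2 ratios were 2.53, 3.22, 3.12 and 3.15 in bone marrow Fr.A and -0.40, -0.69, -0.90 and -0.90 in fetal liver Fr.A. In Fr.B/C they were 3.08, 3.24, 2.94 and 3.14 against -0.66, -0.51, -0.60 and -0.61. The tissues did not overlap in either fraction. Dntt was at least 12.2-fold lower in fetal liver Fr.A (difference -3.72 ± 0.14 SE, limma adjusted p = 5.16e-11). In Fr.B/C it was at least 11.6-fold lower (-3.70 ± 0.14 SE, adjusted p = 5.30e-11). With processed signals, which lack the offset, the differences were -6.92 and -6.88.

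**Figure D2:**
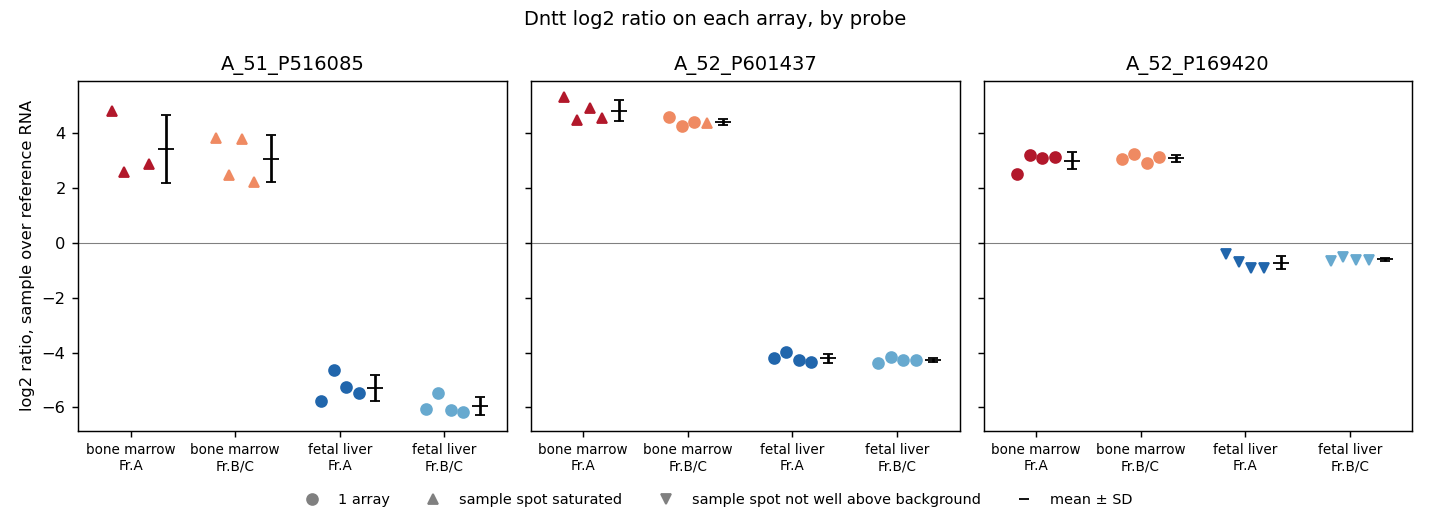
Log2 ratio of sample over reference for each array in the 4 groups, 1 panel for each Dntt probe, with the mean and SD of each group. Upward triangles mark a saturated sample spot and downward triangles one not well above background. On every probe all bone marrow arrays lie above 0 and all fetal liver arrays below 0.

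Thus 3 of 3 Dntt probes passed the test as lower in fetal liver in each fraction. Over all 27521 probes tested, 28.0% passed in Fr.A (15.7% as lower) and 28.1% in Fr.B/C (14.7% as lower). Groups that did not overlap were found for 25.3% of probes in Fr.A and for 29.2% in Fr.B/C. Being called or not overlapping was therefore common, so the rank of the log2 difference is given too. A_52_P601437 and A_51_P516085 had the lowest and next lowest log2 difference of all probes in Fr.A, and the reverse order in Fr.B/C. The next probe in Fr.A was an unnamed one at -4.32, then H2-D1, a class I histocompatibility gene, at -4.31. In Fr.B/C the next was Tgtp1, an interferon-induced GTPase, at -4.87. A_52_P169420 had rank 11 from the lowest for Fr.A, while its Fr.B/C rank was 24. Its differences are bounds, because its fetal spots were not well above background. Those of A_51_P516085 for both fractions, and that of A_52_P601437 for Fr.A, are bounds too, because bone marrow spots were saturated. The probes share a target and are not replicates of one another.

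**Figure D3:**
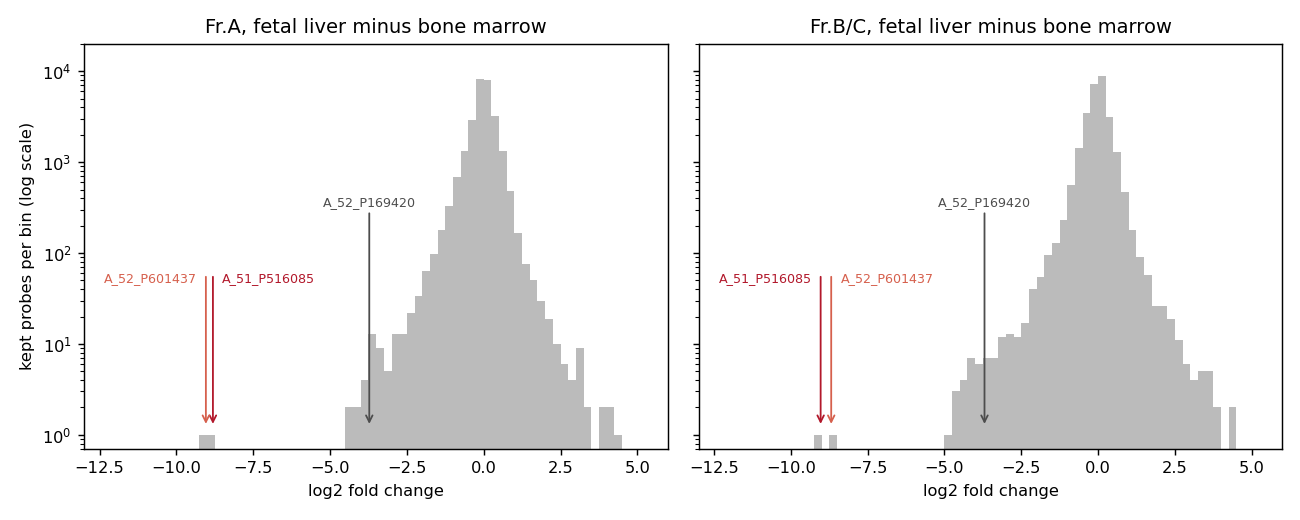
Number of tested probes (log axis) by log2 difference, fetal liver minus bone marrow, for Fr.A and then Fr.B/C, with arrows at the 3 Dntt probes. A_51_P516085 and A_52_P601437 lie between -9.04 and -8.68, apart from the rest of the probes, which go no lower than -4.32 in the former and -4.87 in the latter.

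The reference channel was not equal for A_51_P516085 between the tissues, although one reference RNA was used. With the sample in Cy5, the reference spot read 2095 to 4698 on bone marrow arrays and 13826 to 16006 on fetal liver arrays. With the sample in Cy3 it read 8383 to 15739 and 6049 to 12551. The tissues lay apart in this channel with the sample in Cy5 and overlapped with it in Cy3. In bone marrow the ratio of this probe was 4.15 with the sample in Cy5 (3 arrays) and 2.54 with it in Cy3 (4 arrays). The tissues differed nearly as much in the sample's channel alone. That channel was taken after a normalization that uses both channels, so the reference is not fully removed from it. In it A_51_P516085 differed by -8.16 in Fr.A (limma adjusted p = 4.33e-14) and -8.47 in Fr.B/C (adjusted p = 7.49e-15). Its bone marrow spots were saturated, so these values do not measure the size of the difference. With the sample in Cy5 only, the difference of the log2 ratios in Fr.A was -10.35 and with it in Cy3 only -7.78. The authors' deposited table held the same direction on each probe, with group means for A_51_P516085 of 3.80 and 3.09 in bone marrow Fr.A and Fr.B/C and of -5.59 and -6.39 in fetal liver.

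Between the fractions of one tissue Dntt differed far less than between the tissues. By level both bone marrow fractions came first and both fetal fractions last. A_51_P516085 cannot order the bone marrow fractions, because its spots were saturated in both, and on A_52_P169420 they stood at 3.00 ± 0.32 in Fr.A against 3.10 ± 0.13 in Fr.B/C (SD, n = 4 each), within their spread. The fetal fractions overlapped on each probe. In bone marrow the step of A_51_P516085, Fr.B/C minus Fr.A, was -0.45 ± 0.46 (SE; limma adjusted p = 0.517; 95% interval -1.43 to 0.53), with both groups saturated. In fetal liver it was -0.66 ± 0.42 (SE; adjusted p = 0.315; interval -1.57 to 0.24). The 4 fetal pairs of the same number nevertheless all went one way, with Fr.B/C minus Fr.A at -0.27, -0.84, -0.84 and -0.71. That such a pair comes from 1 sort was taken from the numbers, and the sort block rests on it. In fetal liver pairs of the same number did not stand out from the sets of arrays 1 and 2, and 3 and 4. With the sort as a block, the fetal step of -0.66 passed the test (adjusted p = 0.00339). The bone marrow step then was -0.58 (adjusted p = 0.0124), but a step between saturated groups does not measure Dntt. The fetal step of A_52_P601437 was smaller, at -0.06 ± 0.14 (SE; adjusted p = 0.826; interval -0.36 to 0.24). That of A_52_P169420 was 0.12 (adjusted p = 0.605), between values that were both below the background limit. With the sort as a block the fetal step passed on A_51_P516085 alone of the 3 probes.

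In bone marrow A_52_P601437 passed the test with a step of -0.42 ± 0.14 (SE; limma adjusted p = 0.0325), although its arrays overlapped between the fractions. Its spots were saturated on all 4 arrays of Fr.A and on 1 of Fr.B/C, so the size of this step is not measured. Without replicate 1 of bone marrow Fr.A the step was -0.26 (adjusted p = 0.107), and with scaling between arrays it turned to 0.14 (adjusted p = 0.754). The call was also lost without replicate 3 of Fr.A (adjusted p = 0.0661) or replicate 2, 3 or 4 of Fr.B/C (adjusted p = 0.0776, 0.0784 and 0.0550). The unsaturated probe A_52_P169420 had a step of 0.10 ± 0.14 (SE; adjusted p = 0.658; interval -0.20 to 0.39). In bone marrow 1 of 3 Dntt probes passed, where 31.4% of all probes did (17.2% as lower), and in fetal liver 0 of 3, where 22.2% did. The size of the step did not pass as different between the tissues on any probe, at -0.22, 0.36 and 0.03 (adjusted p = 0.889, 0.339 and 0.959), where 6.74% of probes did.

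The other genes that act at the same junctions differed far less between the tissues than Dntt. Rag1 and Rag2 encode the recombinase that opens the ends. Rag1 read 2.56, 2.51, 2.09 and 2.11 in bone marrow Fr.A and 2.36, 1.76, 2.18 and 2.11 in fetal liver Fr.A. Those arrays overlap, and neither gene passed the test in Fr.A, with differences of -0.22 for Rag1 (limma adjusted p = 0.238) and 0.05 for Rag2 (adjusted p = 0.781). The 3 Rag1 probes ran from -0.22 to 0.35 in this comparison. In Fr.B/C Rag1 read 1.57, 1.65, 1.80 and 1.64 in bone marrow and 1.16, 1.03, 1.12 and 0.84 in fetal liver. Rag1 was lower there, by a difference of -0.63 (adjusted p = 0.00178), and so was Rag2, by -0.32 (adjusted p = 0.0291). The Rag2 call was lost when replicate 2, 3 or 4 of bone marrow Fr.B/C or replicate 1, 2 or 4 of fetal liver Fr.B/C was left out (adjusted p up to 0.0817). With the sample in Cy5 only, the adjusted p was 0.133 for Rag1 and 0.403 for Rag2. From Fr.A to Fr.B/C Rag1 fell in both tissues, by 0.65 in bone marrow (adjusted p = 0.000940) and by 1.06 in fetal liver (adjusted p = 1.52e-05). The bone marrow call was lost with median centring (adjusted p = 0.0510), scaling (0.102), Cy5 only (0.0681) and Cy3 only (0.0621). The fetal call was kept under all 20 other settings. Rag2 passed as lower in fetal liver (-0.45) and not in bone marrow (-0.09). Its fetal call was lost with Cy5 only, Cy3 only and arrays averaged in pairs.

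Of the 8 end joining genes, 2 were higher in fetal liver Fr.A and none lower, and none was higher in Fr.B/C while 4 were lower. The list medians were -0.10 and -0.34, beside 0.01 and 0.03 over all 13769 named genes, of which 28.8% and 31.1% passed (13.9% and 15.6% as higher, 14.9% and 15.5% as lower). Xrcc6, which encodes the Ku70 end-binding protein, read 0.48, 0.56, 0.31 and 0.53 in bone marrow Fr.B/C and -0.52, -0.50, -1.05 and -1.12 in fetal liver Fr.B/C. These arrays do not overlap, and Xrcc6 was lower by a difference of -1.27 ± 0.15 (SE; adjusted p = 1.85e-05). Lig4, the ligase of this pathway, read 0.72, 0.69, 0.16 and -0.08 in bone marrow Fr.B/C and -0.56, -0.67, -1.36 and -1.09 in fetal liver Fr.B/C. It too was lower, by -1.29 ± 0.20 (SE; adjusted p = 0.000184). The other members lower in Fr.B/C were Dclre1c, the Artemis nuclease that opens hairpin ends (-0.45, adjusted p = 0.00333), and Paxx (-0.43, adjusted p = 0.00777). The other Dclre1c probe went the opposite way, at 0.23, and the Dclre1c call was lost with the sample in Cy5 only (adjusted p = 0.0818), in Cy3 only (0.281) and with arrays averaged in pairs (0.102). In Fr.A the higher members were Xrcc5, which encodes Ku80 (0.32, adjusted p = 0.0293), and Prkdc, the DNA-dependent protein kinase (0.31, adjusted p = 0.0483). The Xrcc5 call was lost without replicate 3 or 4 of bone marrow Fr.A or replicate 1 or 4 of fetal liver Fr.A (adjusted p up to 0.0879). That of Prkdc was kept in 7 of 16 fits without 1 array and lost without replicate 3 or 4 of bone marrow Fr.A, 1, 2 or 4 of fetal liver Fr.A, 2 or 3 of bone marrow Fr.B/C, or 1 or 3 of fetal liver Fr.B/C (adjusted p up to 0.160). Xrcc4 and Nhej1 passed in neither fraction, at -0.17 and 0.12 in Fr.A and -0.26 and -0.03 in Fr.B/C.

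From Fr.A to Fr.B/C in bone marrow 5 of the 8 rose and none fell, and in fetal liver 1 rose and 1 fell, where 32.7% and 24.4% of named genes passed (15.9% and 11.5% as higher, 16.8% and 13.0% as lower). Lig4 rose in bone marrow by 1.71 ± 0.20 (SE; limma adjusted p = 8.30e-06). Its fetal step was 0.56 (adjusted p = 0.0576), or adjusted p = 0.00176 with the sort as a block. Xrcc6 rose in bone marrow by 0.87 (adjusted p = 0.000404), with a fetal step of -0.13. The other members that rose in bone marrow were Xrcc4, Nhej1 and Dclre1c, whose other probe read -0.02. Nhej1 and Dclre1c both lost their call without replicate 1 of bone marrow Fr.A (adjusted p = 0.0606 and 0.0647), leaving 3 of 8. Dclre1c was also lost without replicate 3 or 4 of Fr.A or 1, 2 or 3 of Fr.B/C (adjusted p up to 0.130), and Nhej1 without replicate 2 of Fr.A or 3 of Fr.B/C (up to 0.0858). In fetal liver Xrcc4 rose on its brighter probe, while its other probe read -0.03. Prkdc fell there by 0.34, a call lost without replicate 1, 2 or 4 of fetal liver Fr.A or 3 or 4 of Fr.B/C (adjusted p up to 0.117). With the sort as a block the fetal step of Xrcc5 passed too (-0.27, adjusted p = 0.0129). The steps of Lig4, Xrcc6 and Polm differed between the tissues by the interaction test, which 7.18% of named genes passed. With the sort as a block those of Prkdc (-0.42, limma adjusted p = 0.0214) and Dclre1c (-0.38, adjusted p = 0.0416) passed too. That setting called 4383 probes, against 1855 without the block.

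Among the polymerases of Dntt's own family, the X family, none changed on the scale of Dntt. Polm, the template-tolerant relative closest to Dntt, read -2.03, -2.44, -2.26 and -2.28 in bone marrow Fr.A and -2.14, -2.16, -2.31 and -2.27 in fetal liver Fr.A. These overlap, and the difference was 0.03 (limma adjusted p = 0.855). In Fr.B/C Polm was lower in fetal liver by -0.44 (adjusted p = 0.00208), with arrays of -1.48, -1.74, -1.57 and -1.66 against -2.17, -2.13, -1.96 and -1.95. Poll was lower in fetal liver Fr.A (-0.58, adjusted p = 0.00402) and did not pass in Fr.B/C (-0.26, adjusted p = 0.167). Polb, a base excision repair polymerase, was at 0.09 and -0.13 on its brighter probe, neither of which passed, while its other probe read -0.61 and -0.50. With Dntt counted, 2 of the 4 family members were lower in each fraction. The share of all named genes that were lower was 14.9% for Fr.A, against 15.5% for Fr.B/C. Of the 3 genes whose proteins are known to bind terminal transferase, Dnttip1 and Pcna passed in neither fraction. Dnttip2 was higher in fetal liver Fr.A (0.32, adjusted p = 0.0424), and its call was lost with the sample in Cy5 only (adjusted p = 0.359). It was also lost without replicate 1 or 2 of bone marrow Fr.A, 3 or 4 of fetal liver Fr.A, or 1 or 3 of bone marrow Fr.B/C (adjusted p up to 0.135).

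**Figure D4:**
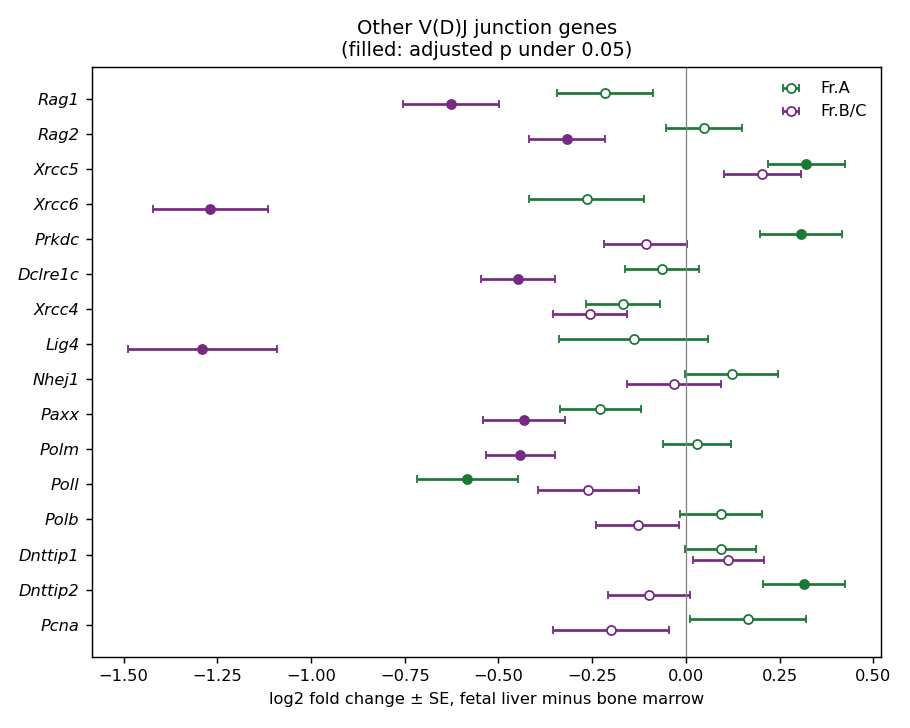
Log2 difference, fetal liver minus bone marrow, with its SE in Fr.A and Fr.B/C, filled where the limma adjusted p is under 0.05. The 16 genes are the recombinase genes, the end joining genes, the other X family polymerases and the genes of terminal transferase partners. The lowest are Lig4 at -1.29 and Xrcc6 at -1.27 in Fr.B/C, against -9.04 to -3.70 for the Dntt probes, which are not drawn.

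Of the 6 measured recombination cofactors, 3 were higher in fetal liver Fr.A and 0 of 6 passed in Fr.B/C, with medians of 0.34 and 0.03. Transcription factors of early lymphoid cells showed 1 of 17 higher and 7 lower in each fraction, with medians of -0.22 and -0.22. Over all named genes 13.9% were higher and 14.9% lower in Fr.A, and 15.6% and 15.5% in Fr.B/C. Among those that were lower were Bach2 (-1.31 in Fr.A, -1.75 in Fr.B/C), Myb (-1.08 and -0.73), Elf1 (-0.52 and -0.86) and Ebf1, a factor that specifies the B lineage (-0.56 and -0.98). The other Elf1 probe read 0.04 in Fr.A, so that call rests on 1 of 2 probes, and -0.29 in Fr.B/C. Ikzf1, which encodes Ikaros, was lower in Fr.A (-0.74, limma adjusted p = 0.0138) and did not pass in Fr.B/C (-0.49, adjusted p = 0.0915). Ets1 and Tcf3 did not pass, at 0.05 and 0.12 in Fr.A. All 6 genes of the fetal programme, among them Lin28b and Arid3a, were higher in fetal liver in both fractions. Their medians were 3.18 and 2.86, and Lin28b was at least 10.4-fold and 12.4-fold higher.

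Dntt is also known from common lymphoid progenitors, early T cells and plasmacytoid precursors, so the markers of those cells were read beside it. In fetal liver Fr.A 7 of 15 T-lineage genes were lower and none higher, and in Fr.B/C 6 were lower and 1 higher, with medians of -0.25 and -0.07. The shares over all named genes were 14.9% lower and 13.9% higher in Fr.A, against 15.5% and 15.6% in Fr.B/C. Their summed sample signal was 8603 to 9471 in bone marrow Fr.A and 3875 to 4787 in fetal liver Fr.A. In Fr.B/C it was 5201 to 5806 and 3012 to 3142, and of these genes Cd247 was not well above background in any group but bone marrow Fr.A. Of 10 lymphoid progenitor genes, 4 were lower and 2 higher in each fraction, with medians of -0.29 and -0.43, and their summed signal was 65482 to 76084 against 40299 to 45497 in Fr.A. In Fr.B/C it was 15002 to 22298 against 11066 to 12768. Ly6d, a surface gene of B-biased lymphoid progenitors, was the lowest of these in both fractions (-3.49 and -3.36). The highest member of the list stood at 1.98 in Fr.A and at 1.16 in Fr.B/C. Of 11 pro-B genes, 3 were lower in Fr.A and 5 were in Fr.B/C, none was higher, and the medians were -0.40 and -0.39.

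Of 9 plasmacytoid dendritic genes, 3 were higher and 2 lower in fetal liver Fr.A, and 2 and 4 in Fr.B/C, and Siglech was not well above background on any Fr.B/C array. Their summed signal was 37382 to 41401 in bone marrow Fr.A and 36923 to 41721 in fetal liver Fr.A, ranges that overlap. Of 9 NK genes, 6 were lower in Fr.A and 2 were in Fr.B/C, with none higher, where 14.9% and 15.5% of named genes were lower. Of 10 myeloid genes, 2 were higher and 3 lower in Fr.A, and 3 lower in Fr.B/C. Of 10 erythroid genes, 8 were higher in each fraction, where 13.9% and 15.6% of named genes were, with medians of 1.59 and 1.71. In Fr.A 1 was lower, Hbb-bt at -1.71, whose 4 probes ran from -1.71 to 0.49, and in Fr.B/C none was. The erythroid sum was 82549 to 157494 in fetal liver Fr.A against 44999 to 54298 in bone marrow Fr.A. The part of these cell types in the Dntt difference was not tested.

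The genes most like Dntt in pattern were found by Pearson correlation over the arrays among 13768 other named genes. The arrays fall into 2 tissue clusters, so r here measures mainly how a gene follows the tissues, and it is given with no test. With A_51_P516085, over 15 arrays, the highest were H2-T23 (r = 0.992), H2-Q5 (0.991), H2-Q7 (0.990), Igtp (0.990), H2-Q10 (0.989) and H2-Q1 (0.988). The H2 genes are class I histocompatibility genes of like sequence, whose probes may not separate them, and Igtp is an interferon-induced GTPase. Among the lowest were Igf2bp1 (-0.991), Fgd5 (-0.990) and Rps4l (-0.986). With the unsaturated A_52_P169420, over 16 arrays, the highest were H2-Q1 (0.991), H2-Bl (0.989), Erbb3 (0.989), Ifi44l (0.987), 9330175E14Rik (0.987) and Itpr2 (0.987). Lin28b was the lowest (-0.992), before Gcat (-0.986), Igf2bp1 (-0.984) and Mcts2 (-0.981, 15 arrays). The 3 Dntt probes correlated among themselves at 0.970 to 0.993.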

How the data were processed

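The authors deposited 16 scanner files from Feature Extraction 8.5.1.1, which per the file headers hold each spot's mean and background signal in both dyes as intensity, with flags for saturation, outliers and background. The scanner's own ratio is log10, per the file headers. A series table of log2 ratios was also deposited by the authors; the steps behind it are not given in these sources, and the submitters' processing notes name limma without a version. For this work signals were corrected by normexp (offset 50) and loess in limma 3.58.1 under R 4.3.3, and turned to sample over reference. The offset shrinks differences of dim probes. Saturated spots were kept. Probes well above background on at least 3 of 4 arrays of a group, with values on at least 12 arrays, were kept (27521 of 41174).

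The limma model took 16 arrays, a mean for each of the 4 groups and a term for dye, leaving 11 residual degrees of freedom, with Benjamini-Hochberg adjustment over all kept probes, a threshold of 0.05 and 95% intervals. Its script was tested on simulated data. A saturated or dim group gives a bound: the bright group's mean against the dim probe's signal or, where higher, the lowest signal well above background. Where the fold of the model's log2 difference, with the same floor, was smaller, that fold was given instead. Each gene stands by its brightest kept probe. Symbols came from RefSeq accessions or descriptions. Of the listed genes, Hmgb2, Ighm, Igll1 and Ly6c2 were not named on the array here, and Pax5, Cd8a and Gzmb were not kept.

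Each sort gave both fractions, per the labels' protocols, and every same-numbered pair of fractions deviated together (r = 0.448 to 0.528 in bone marrow, 0.254 to 0.371 in fetal liver), so the numbers were taken to pair samples within a tissue. Arrays 1 and 2, and 3 and 4, also went together: pairs of unequal number within these sets had r = 0.253 to 0.352 in bone marrow and 0.218 to 0.420 in fetal liver, so in fetal liver the number does not stand out from the set. Between tissues r was 0.304 to 0.495 in Fr.B/C but -0.235 to 0.175 in Fr.A, so the numbers were not taken as pairs there. Named were all Dntt probes, all members of the junction lists, up to 4 members of other lists by smallest adjusted p or where counts turn on them, and the 6 most and 4 least correlated genes, of which 1 is not reported here. The members and lists were chosen with earlier results of these data known. No probe or protein sequence was used here.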

Additional observations from a re-analysis of the deposited data

Results flagged for a closer look

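In 6 of 99 sets of 4 arrays tested, 1 array stood apart from the other 3 by Dixon's ratio; chance gives about 1 in 20. For Dntt this was A_52_P169420 in bone marrow Fr.A, where replicate 1 had a log2 ratio of 2.53. The others were Atm in fetal liver Fr.A replicate 3 (-0.42), Pcna in fetal liver Fr.A replicate 3 (0.11), Polb in bone marrow Fr.A replicate 1 (-0.50), Polb in fetal liver Fr.A replicate 2 (-0.62) and Xrcc5 in fetal liver Fr.A replicate 1 (-0.29).

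The step from Fr.A to Fr.B/C differed between the tissues for 3 of the junction genes by the interaction term of the limma model. These were 2 of 8 end joining genes and 1 of 4 X family polymerases, where 7.18% of all named genes passed. In the other lists 0 of 2 recombinase genes, 0 of 3 terminal transferase partners and 0 of 6 cofactors passed. The fetal liver step minus the bone marrow step was -1.003 for Xrcc6 (adjusted p = 0.0109), -1.15 for Lig4 (adjusted p = 0.0224) and -0.47 for Polm (adjusted p = 0.0411). Under 19 other settings the Xrcc6 and Lig4 differences each kept their side of the threshold in 15, and that of Polm in 7. Leaving out replicate 4 of bone marrow Fr.A or of fetal liver Fr.B/C ended the call of Lig4 (adjusted p = 0.0518 and 0.0515), and that of Polm was lost in 12 of 16 such fits.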

How the results depend on the processing

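The lower level of Dntt in fetal liver kept its direction and call on each of the 3 probes, in both fractions, under the other settings tried (19 for A_51_P516085, 18 for each of the others) and in all 16 fits without 1 array. Over those settings A_51_P516085 ranged from -10.35 to -7.78 in Fr.A and from -9.88 to -8.18 in Fr.B/C, A_52_P601437 from -10.07 to -8.71 and -9.69 to -8.55, and A_52_P169420 from -6.92 to -3.47 and -6.88 to -3.51. Scanner saturation and the background limit bound these folds.

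The bone marrow step was not stable. For A_51_P516085, saturated in both groups, it passed with the sort as a replicate block (-0.58), with the sample in Cy5 only (-1.03) and with 1 tissue alone (-0.64); the fetal step passed with the replicate block (-0.66) and from the sample channel alone (-0.54). For A_52_P601437 the step no longer passed with an offset of 0 (-0.44), processed signals (-0.47), the deposited table (-0.43) or median centring (-0.26). Nor did it pass with Cy5 only (-0.62), Cy3 only (-0.21) or arrays averaged in pairs (-0.42), and it reversed with scaling (0.14). The call was lost too where saturated spots were left out if their group kept a value (-0.43). That dropped only replicate 4 of Fr.B/C, since all 4 Fr.A spots were saturated and stayed in. The block changed no other call of a Dntt probe. Leaving out 1 array gave -0.51 to -0.26. The fits of 1 tissue or fraction alone, session as a fixed block and the sample channel alone were chosen after seeing the data. With scaling the step of the unsaturated A_52_P169420 passed as higher (0.46, adjusted p = 0.0251), opposite to the other probes. The cause was not tested.

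Counts of probes called moved by over 1.5 times with fewer arrays or another normalization. In Fr.A, of 7717, median centring left 4692, Cy5 only 2503, Cy3 only 2259 and paired averages 2640. In Fr.B/C, of 7736, Cy5 only, Cy3 only and paired averages left 1837, 1661 and 2133. For the bone marrow step, of 8638, these settings in the order of Fr.A left 4979, 3004, 2948 and 3737, and for the fetal step, of 6115, 3227, 1948, 1451 and 2091. For the difference of steps, of 1855, an offset of 0 gave 1117, median centring 492, Cy5 only 28, Cy3 only 13, paired averages 41, the replicate block 4383, scan session as a random block 3608 and as a fixed block 4062, and the sample channel 3638. Median centring also lowered the share of calls that were higher, from 44.1% to 23.7% in Fr.A, 47.8% to 19.0% in Fr.B/C and 45.1% to 31.6% for the fetal step.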
